A study of Mus musculus with 32 samples.

Results

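The clustered protocadherins were followed in the cerebral cortex of 2 aneuploid mouse genotypes and of euploid mice. They were taken as every gene of the count table whose symbol begins with Pcdha, Pcdhb, Pcdhga, Pcdhgb or Pcdhgc and ends in a number, with the C-type alpha genes Pcdhac1 and Pcdhac2 included. The rule found 58 of 55401 genes: 14 in the alpha cluster, 22 in the beta cluster and 22 in the gamma cluster. The rule uses no expression value. In GRCm38 the alpha genes span chromosome 18 from 36930184 to 37187661, the beta genes from 37264938 to 37524479, and the gamma genes from 37661793 to 37841873. A pair of identifiers in the table carries the symbol Pcdha11. The upstream Pcdha11 entry starts at 37005203, close to the start of Pcdha10 at 37005320 in RefSeq, and the downstream Pcdha11 entry starts at 37010712, close to the start of Pcdha11 at 37010858 in RefSeq.

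Clustered protocadherins are adhesion proteins on the surface of neurons. In the alpha and gamma clusters each gene has its own first exon and promoter, and its transcript is spliced to constant exons shared by the whole cluster, whereas each beta gene stands alone without a shared part. A neuron uses a small set of these promoters, chosen through CTCF, cohesin and DNA methylation, and matching sets on touching surfaces let branches of the same cell recognise each other. The C-type genes at the downstream end of the alpha and gamma clusters are regulated differently and are read in most neurons of a kind.

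RNA came from 32 mice aged 6 weeks. There were 10 Ts65Dn;Df(17)2 mice, 5 of each labelled sex, 10 Dp(16)1/Df(16)8 mice, 5 of each labelled sex, and 12 +/+ mice, 6 of each sex. As background, Ts65Dn is a freestanding additional chromosome that carries a distal part of mouse chromosome 16 beside the centromeric end of chromosome 17, Dp(16)1 is a duplication of that part of chromosome 16 inside the chromosome, and the deficiencies Df(17)2 and Df(16)8 take away the parts that only 1 of the aneuploid forms would add. The aneuploid genotypes therefore set a similar extra dose of genes in 2 chromosomal forms against the euploid state, and the clustered protocadherins on chromosome 18 lie outside the added genes. Strain background, litters and the exact dissection are not given in the sources used here, and each library comes from an animal with a number of its own. The only animals numbered below 30000 were Ts65Dn;Df(17)2 replicates 4 and 5, so that number range and this genotype cannot be told apart.

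Libraries held 5795479 to 11189548 counts, of which 5070 to 10464, or 0.0862% to 0.107%, fell in the clustered protocadherins. As a check of the labels, the 77 tested genes between Mrpl39 and Zbtb21 on chromosome 16 had a median fold of 1.504 in Ts65Dn;Df(17)2 over +/+ and 1.538 in Dp(16)1/Df(16)8 over +/+. Sex-linked transcripts of Dp(16)1/Df(16)8 replicate 2 went against its label. None of 14 markers of cortical excitatory neurons was at 0 in all animals of a genotype. The same held for all 16 gene lists, olfactory bulb and thalamus included, so it does not tell tissues apart. A list of 16 markers of striatal neurons varied widely between animals, with summed levels of 974 to 3612 CPM (counts scaled to a library of fixed size) in Ts65Dn;Df(17)2, 395 to 3953 CPM in Dp(16)1/Df(16)8 and 317 to 4091 CPM in +/+ animals, and results that move with it are given further on.

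In total, 56 of the 58 genes had enough counts to be tested: 13 alpha, 21 beta and 22 gamma genes. Pcdha4, with 1 to 14 counts per library, and Pcdhb1, with 0 to 14, were not tested and are given by their level alone. No member passed the test in a comparison of genotypes, and what follows describes the levels, the sizes of the differences and their intervals.

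Levels are given as CPM per kilobase, dividing the counts scaled by library by the exon length that no other gene shares on the same strand, so that genes can be compared. In the alpha cluster Pcdhac2, which guides the spacing of serotonergic axons, stood far above the rest at 18.7 CPM per kilobase over the 32 animals. Pcdha12 followed with 5.19 CPM per kilobase. Pcdhac1, the other C-type alpha gene, had 4.04 CPM per kilobase and was level with ordinary alpha genes. The lowest tested alpha genes were the upstream Pcdha1 and Pcdha2 at 0.752 and 1.33 CPM per kilobase. The level of Pcdha4, 1.80 CPM per kilobase, rests on only 494 unshared bases.

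The beta cluster had no gene that stood out in this way. Pcdhb17 and Pcdhb16 had the highest levels, 5.85 and 5.76 CPM per kilobase, and Pcdhb4 and Pcdhb2 the lowest of the tested genes, 1.48 and 1.58 CPM per kilobase. Pcdhb1 was at 0.142 CPM per kilobase. Levels were higher toward the downstream end of the cluster. Over Pcdhb2 to Pcdhb8, a stretch chosen after the values were seen, the median of 7 genes was 1.83 CPM per kilobase with a range of 1.48 to 3.14. Over Pcdhb9 to Pcdhb22 the median of 14 genes was 3.94 CPM per kilobase with a range of 2.58 to 5.85.

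The gamma cluster was led by a pair of C-type genes. Pcdhgc5, which binds a subunit of the GABA-A receptor, had 28.1 CPM per kilobase and Pcdhgc3, which binds Axin1 and acts on dendrite branching, had 21.03 CPM per kilobase. Pcdhgc4, the gamma gene that interneurons need to survive, had 5.18 CPM per kilobase and lay among the ordinary gamma genes. The 12 gamma A genes had a median of 5.77 CPM per kilobase and a highest level of 8.68 in Pcdhga11, and the 7 gamma B genes a median of 3.55 and a highest level of 7.15 in Pcdhgb6. Pcdhga1 and Pcdhgb5 were lowest with 2.19 and 2.47 CPM per kilobase. Pcdhgb8 is annotated as a polymorphic pseudogene and had 3.20 CPM per kilobase.

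**Figure D1:**
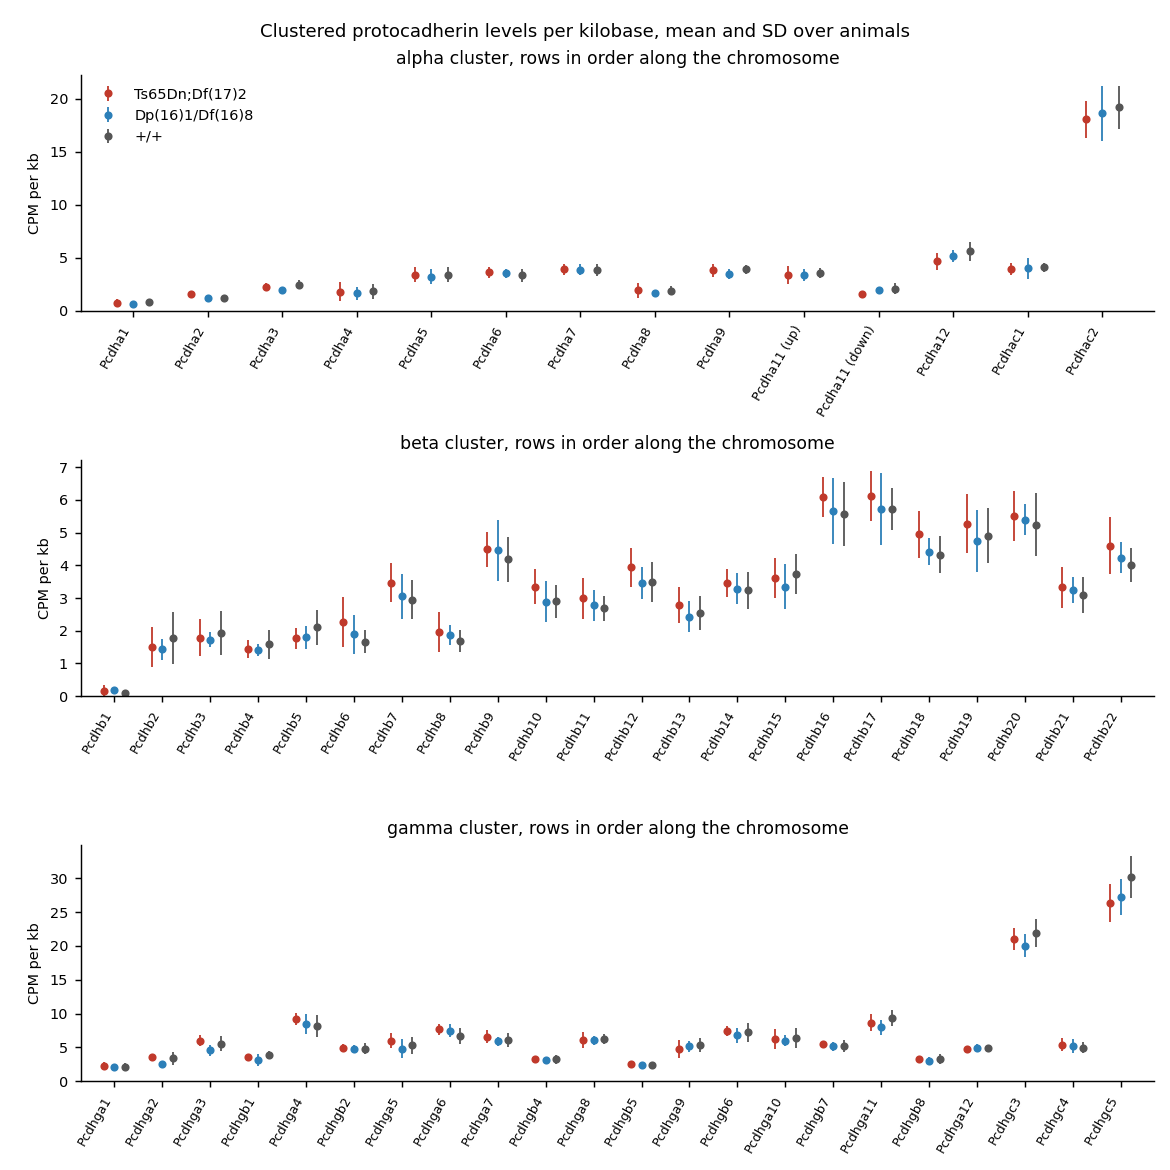
Each point is the mean level of a gene in CPM per kilobase of unshared exon (vertical axis) in Ts65Dn;Df(17)2 (n = 10), Dp(16)1/Df(16)8 (n = 10) and +/+ animals (n = 12), with bars for the SD over animals, and genes run in their order along the chromosome; up and down mark the upstream and downstream Pcdha11 entries. Pcdhac2 at 18.7, Pcdhgc3 at 21.03 and Pcdhgc5 at 28.1 CPM per kilobase, as means over all animals, stand above all other members, and the genotypes lie close together at each gene.

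The lengths affect some of these levels. With exon bases counted only where no gene lies on either strand, Pcdhgc3 had 39.0 CPM per kilobase, above the 28.1 of Pcdhgc5, Pcdhga11 had 18.2, and the downstream Pcdha11 entry had 6.94 in place of 1.91. In the beta cluster Pcdhb12 then had 9.93 in place of 3.62, above the 5.85 of Pcdhb17. This length was tried after the data had been seen. The antisense gene Gm26672 covers all 2613 exon bases of Pcdhga10 that no gene shares on the same strand, of 4732 in all, and Pcdhga10 held 77 to 223 counts per library while Gm26672 held 5 to 29. All alpha genes contain the same constant exons, and the alpha gene with the fewest counts, Pcdha4, averaged 0.887 CPM over the 32 animals.

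The share of each cluster taken by its C-type genes overlapped between genotypes. Pcdhac1 and Pcdhac2 made up 45.2% ± 3.3 of alpha counts in Ts65Dn;Df(17)2, 46.1% ± 3.5 of them in Dp(16)1/Df(16)8 animals, and 45.2% ± 2.4 of them in +/+ animals (SD, n = 10, 10 and 12). Pcdhgc3, Pcdhgc4 and Pcdhgc5 made up 42.8% ± 1.5 of gamma counts in Ts65Dn;Df(17)2, 44.7% ± 2.3 of them in Dp(16)1/Df(16)8 animals, and 45.5% ± 3.4 of them in +/+ animals. For both shares the ranges of the 3 genotypes overlapped, from 37.9% to 52.0% for alpha and from 39.99% to 49.8% for gamma.

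Summed over its genes, the alpha cluster ran from 130.4 to 162.6 CPM with a median of 145.2 in Ts65Dn;Df(17)2 animals, from 130.7 to 168.5 CPM with a median of 143.3 in Dp(16)1/Df(16)8 animals, and from 137.6 to 166.0 CPM with a median of 151.2 in +/+ animals. The ranges overlapped, and 1 of 10 Ts65Dn;Df(17)2 and 2 of 10 Dp(16)1/Df(16)8 animals lay above the +/+ mean CPM. The mean log2 sum differed by -0.08 between Ts65Dn;Df(17)2 and +/+ and by -0.08 between Dp(16)1/Df(16)8 and +/+, with SDs of 0.11 in both aneuploid genotypes and 0.09 in +/+.

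The beta sum varied most between animals of the same genotype. It ran from 264 to 384 CPM with a median of 341 in Ts65Dn;Df(17)2, from 255 to 367 CPM with a median of 316 in Dp(16)1/Df(16)8, and from 239 to 349 CPM with a median of 314 in +/+ animals. The highest animal of each genotype was 1.44 to 1.46 times the lowest. The mean log2 sum was 0.11 higher in Ts65Dn;Df(17)2 than in +/+ and differed by 0.00 between Dp(16)1/Df(16)8 and +/+, with SDs of 0.17, 0.18 and 0.16 in the 3 genotypes, so the difference was smaller than the spread between animals.

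The gamma sum was the most even. It ran from 471 to 546 CPM with a median of 492 in Ts65Dn;Df(17)2, from 447 to 499 CPM with a median of 477 in Dp(16)1/Df(16)8, and from 454 to 560 CPM with a median of 499 in +/+ animals. All 10 Dp(16)1/Df(16)8 animals lay below the +/+ mean, as did 9 of the 10 Ts65Dn;Df(17)2 animals, and the ranges overlapped. The mean log2 sum differed by -0.10 between Dp(16)1/Df(16)8 and +/+ and by -0.04 between Ts65Dn;Df(17)2 and +/+, with SDs of 0.06 in both aneuploid genotypes and 0.08 in +/+. The first difference was larger than these SDs and the second smaller. An SD over animals, here and for the other clusters, does not measure the uncertainty of a difference of means. These sums are descriptions and were not tested. In bulk tissue, fewer cells of a type and less RNA per cell cannot be told apart.

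**Figure D2:**
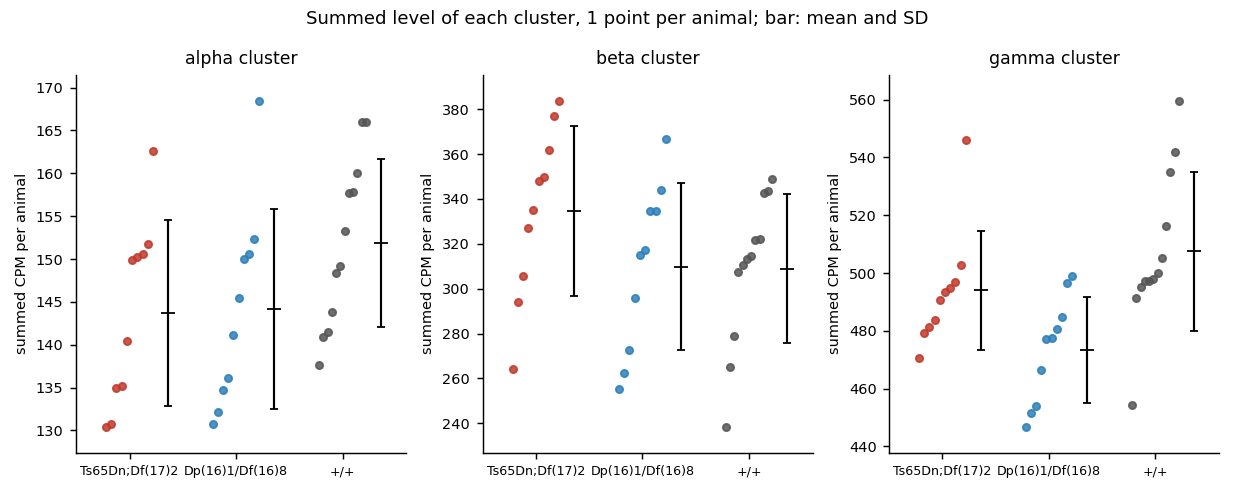
Each point is the summed CPM (vertical axis, which does not start at 0) of a cluster in 1 animal, with columns for Ts65Dn;Df(17)2, then Dp(16)1/Df(16)8, then +/+, drawn in order of value, with the mean and SD beside them. The 3 genotypes overlap in each cluster, and the +/+ mean lies above all 10 Dp(16)1/Df(16)8 animals in the gamma cluster.

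The number of tested genes above their genotype mean, taken on log2 CPM, differed widely between animals in the beta cluster, from 0 to 19 of 21, and ran from 2 to 11 of 13 in the alpha and from 4 to 18 of 22 in the gamma cluster. In +/+ replicate 10, which had the lowest beta sum, 0 of 21 tested beta genes were above their genotype mean, while 7 of 13 alpha genes were above it. In Ts65Dn;Df(17)2 replicate 5, which had the highest beta sum, 19 of 21 beta genes and 16 of 22 gamma genes were above it. In Dp(16)1/Df(16)8 replicate 3 it was 18 of 21 beta genes and 11 of 22 gamma genes. Members of a library share its depth and tissue, so these counts are descriptions. The variation between animals, as edgeR's biological coefficient of variation beyond counting, had a median of 0.12 in the alpha, 0.14 in the beta and 0.13 in the gamma genes, against 0.12 over all 16042 tested genes. It was highest against its trend in Pcdhb6, at 1.197 times the trend fitted at its level. Over all tested genes the median of this ratio was 0.68, and 23.3% of genes lay above the trend.

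In the comparison of Ts65Dn;Df(17)2 with +/+, 0 of 56 clustered protocadherins passed an adjusted p of 0.05 in edgeR's quasi-likelihood test, against 3.97% of all tested genes, 1.75% positive and 2.22% negative. DESeq2 called 2 of them, against 6.63% of its genes, and limma voom called 0, against 4.06%. By unadjusted p, 8 of 56 fell under 0.05, against 21.8% of all genes. Fitted differences were small in the 3 clusters. For 53 of 56 genes the whole 95% interval lay within a 1.5-fold change either way, as it did for 12840 of all 16042 tested genes.

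Of the alpha genes 9 of 13 had negative fitted values in Ts65Dn;Df(17)2, with a median log2 fold change of -0.05, against 48.6% negative and a median of 0.00 over all genes. The downstream Pcdha11 entry ran from 5.65 to 9.64 CPM with a median of 7.55 in Ts65Dn;Df(17)2 animals and from 6.64 to 13.1 CPM with a median of 9.95 in +/+ animals. Ranges overlapped, and 0 of 10 Ts65Dn;Df(17)2 animals were above the +/+ mean. Its log2 fold change was -0.37 (SE 0.11, adjusted p = 0.0522 in edgeR), a fold of 0.771 with a 95% interval of 0.658 to 0.904. The antisense gene Gm10545 covers 2486 of its exon bases, held 1 to 19 counts per library and had a log2 fold change of -0.82 (adjusted p = 0.108 in edgeR). Its part in the value of Pcdha11 was not tested.

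Pcdha2 lay the other way. It ran from 3.19 to 5.53 CPM with a median of 3.83 in Ts65Dn;Df(17)2 animals, and from 2.01 to 4.02 CPM with a median of 3.06 in +/+ animals. Values of the groups overlapped, and all 10 Ts65Dn;Df(17)2 animals were above the +/+ mean. The log2 fold change was 0.34 (SE 0.11, adjusted p = 0.081 in edgeR). Pcdha12 averaged 11.6 ± 2.0 CPM in Ts65Dn;Df(17)2 and 13.9 ± 2.2 CPM in +/+ animals (SD, n = 10 and 12), a log2 fold change of -0.25 (adjusted p = 0.0992 in edgeR). The antisense gene Gm10545 also covers 531 exon bases of Pcdha12, and its part in this value was not tested.

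Of the beta genes 16 of 21 had positive fitted values in Ts65Dn;Df(17)2, with a median log2 fold change of 0.11, against 51.4% positive over all genes. Pcdhb6 ran from 5.34 to 15.3 CPM with a median of 8.08 in Ts65Dn;Df(17)2 animals and from 3.55 to 7.82 CPM with a median of 6.35 in +/+ animals. The ranges overlapped, with 7 of 10 Ts65Dn;Df(17)2 animals above the +/+ mean. The fitted log2 fold change was 0.44 (SE 0.17, adjusted p = 0.115 in edgeR). Pcdhb18 averaged 24.9 ± 3.7 CPM in Ts65Dn;Df(17)2 and 21.8 ± 2.9 CPM in +/+ animals, a log2 fold change of 0.19 (adjusted p = 0.133 in edgeR), and that of Pcdhb22, named after its values were seen, was 0.20 (adjusted p = 0.197 in edgeR).

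The upstream end of the beta cluster differed in sign from the rest, a split seen only after the values were known. All 4 genes from Pcdhb2 to Pcdhb5 had negative log2 fold changes, -0.25 to -0.10, while 16 of the 17 genes from Pcdhb6 to Pcdhb22 had positive ones, the exception being Pcdhb15 at -0.04. None of them passed the test.

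Gamma genes were divided, with 13 of 22 positive and a median log2 fold change of 0.05. Pcdhgc5 ran from 101 to 141 CPM with a median of 123 in Ts65Dn;Df(17)2 animals and from 107 to 166 CPM with a median of 138 in +/+ animals. The ranges overlapped, and 1 of 10 Ts65Dn;Df(17)2 animals was above the +/+ mean. Its log2 fold change was -0.20 (SE 0.06, adjusted p = 0.0578 in edgeR), a fold of 0.872 with an interval of 0.8002 to 0.9501. The other C-type gamma genes had smaller values, -0.06 (SE 0.05) in Pcdhgc3 and 0.13 (SE 0.11) in Pcdhgc4. Pcdhga6 averaged 20.02 ± 2.2 CPM in Ts65Dn;Df(17)2 and 17.5 ± 3.2 CPM in +/+ animals, a log2 fold change of 0.19 (adjusted p = 0.184 in edgeR). The C-type alpha genes Pcdhac1 and Pcdhac2 had log2 fold changes of -0.05 (SE 0.10) and -0.09 (SE 0.07).

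The downstream Pcdha11 entry and Pcdhgc5 lay next to the threshold, and the count of 0 changed with single libraries. Leaving out +/+ replicate 2, 5 or 8 or Ts65Dn;Df(17)2 replicate 1 gave 1 call, the downstream Pcdha11 entry. Without Ts65Dn;Df(17)2 replicate 5 it was Pcdhgc5 alone, and without +/+ replicate 11 or Ts65Dn;Df(17)2 replicate 10 there were 2 calls, both of these. Without +/+ replicate 6 there were 3, with Pcdha12 added. In those fits 1.84% to 9.27% of all tested genes were called. The 2 calls of DESeq2 were the same pair, the downstream Pcdha11 entry at a log2 fold change of -0.38 (adjusted p = 0.0322) and Pcdhgc5 at -0.20 (adjusted p = 0.0332).

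**Figure D3:**
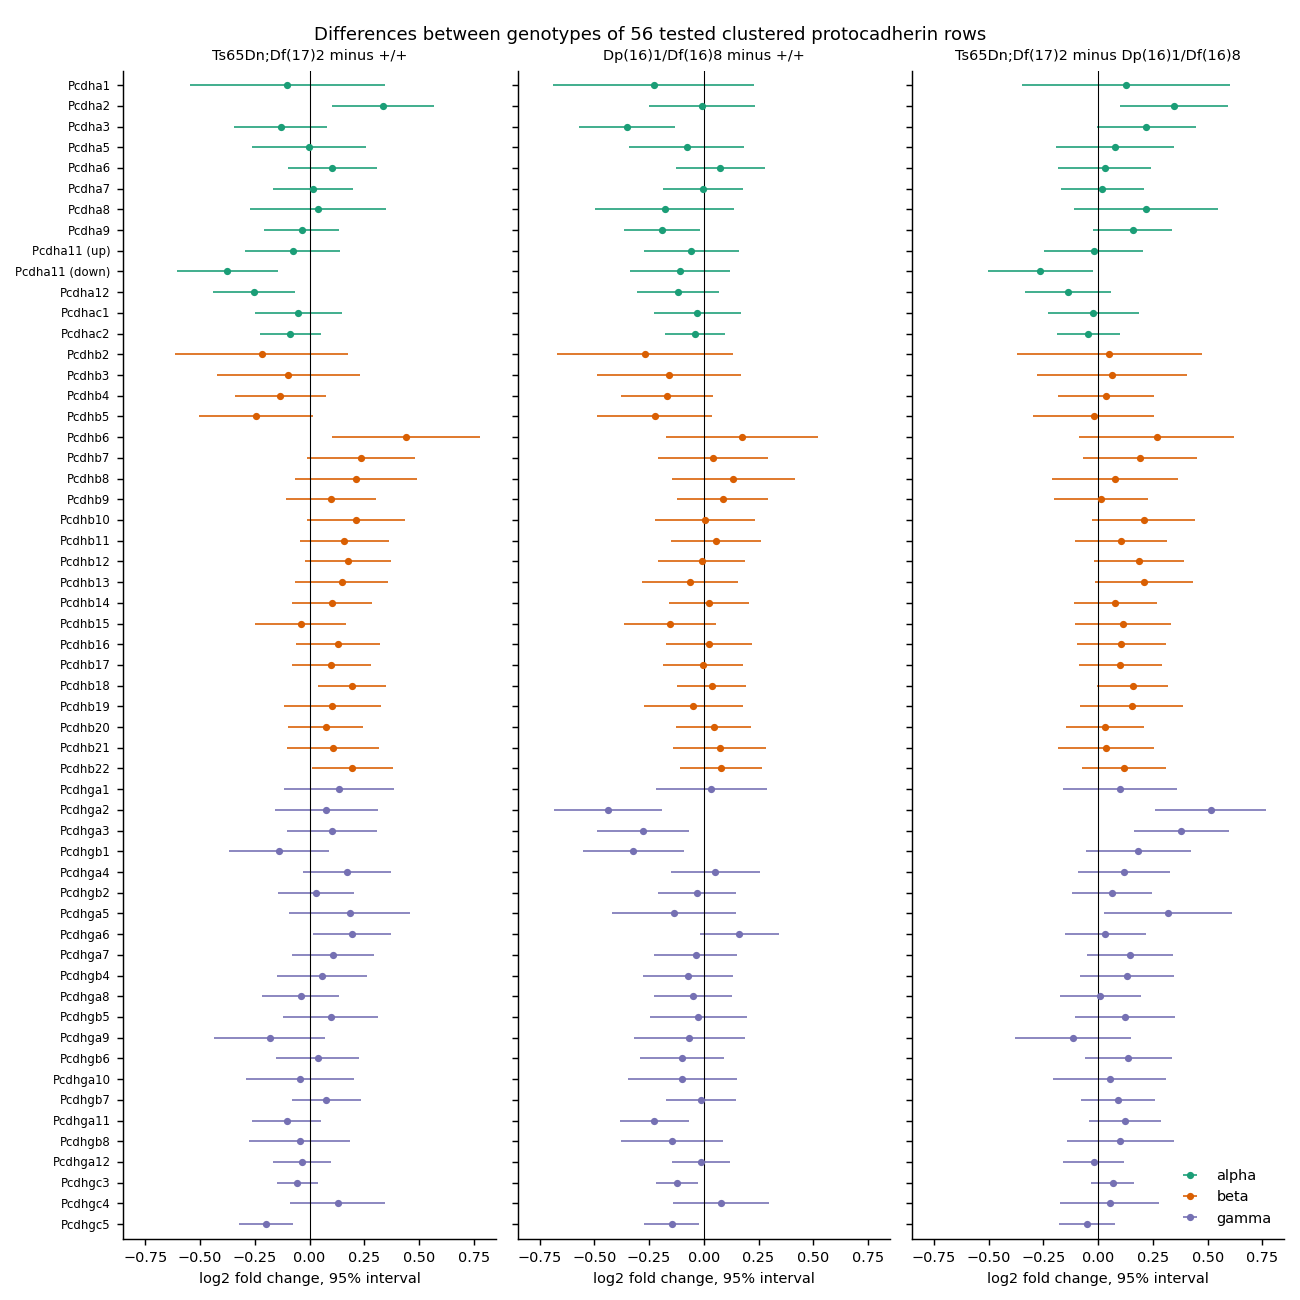
Log2 fold changes (horizontal axis) with 95% intervals of the 56 tested genes in Ts65Dn;Df(17)2 minus +/+, Dp(16)1/Df(16)8 minus +/+ and Ts65Dn;Df(17)2 minus Dp(16)1/Df(16)8, with genes in chromosome order and coloured by cluster. Beta genes lie mostly right of 0 in the first panel, 16 of 21, gamma genes mostly left of it in the second, 18 of 22, and 47 of 56 genes lie right of 0 in the third.

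In the comparison of Dp(16)1/Df(16)8 with +/+, 0 of 56 clustered protocadherins passed in edgeR, against 0.573% of all tested genes, 0.418% positive and 0.156% negative, and DESeq2 and limma voom called 0 as well, against 0.804% and 0.53% of their genes. By unadjusted p, 8 of 56 fell under 0.05, against 12.8% of all genes, and all 8 were negative. The 95% interval lay within a 1.5-fold change either way for 53 of 56 genes, and for 13284 of all 16042 tested genes. Negative values made up 12 of 13 alpha genes, 9 of 21 beta genes and 18 of 22 gamma genes, against 49.5% negative and 50.5% positive over all genes, with medians of -0.08, 0.02 and -0.07. The +/+ animals are the same as in the comparison above, so the 2 sets of values are not independent.

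Pcdhga2, near the upstream end of the gamma cluster, had the smallest p. It ran from 4.24 to 7.71 CPM with a median of 6.43 in Dp(16)1/Df(16)8 animals and from 6.26 to 14.5 CPM with a median of 7.79 in +/+ animals. Ranges overlapped, and 0 of 10 Dp(16)1/Df(16)8 animals reached the +/+ mean. The fitted log2 fold change was -0.44 (SE 0.12, adjusted p = 0.101 in edgeR), a fold of 0.739 with an interval of 0.623 to 0.876. The next genes downstream, Pcdhga3 and Pcdhgb1, had log2 fold changes of -0.28 (SE 0.10) and -0.32 (SE 0.11), with adjusted p = 0.263 and 0.237 in edgeR. Pcdhga11 averaged 20.95 ± 2.8 CPM in Dp(16)1/Df(16)8 and 24.6 ± 3.1 CPM in +/+ animals, a log2 fold change of -0.23 (adjusted p = 0.218 in edgeR).

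Among alpha genes, Pcdha3 ran from 3.85 to 6.22 CPM with a median of 4.69 in Dp(16)1/Df(16)8 animals and from 4.54 to 7.90 CPM with a median of 5.91 in +/+ animals. Values of the groups overlapped, and 1 of 10 Dp(16)1/Df(16)8 animals was above the +/+ mean. Its log2 fold change was -0.35 (SE 0.11, adjusted p = 0.143 in edgeR), and that of Pcdha9 was -0.19 (SE 0.09, adjusted p = 0.34). Pcdhac1 and Pcdhac2 had -0.03 (SE 0.10) and -0.04 (SE 0.07).

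The C-type gamma genes Pcdhgc3 and Pcdhgc5 had log2 fold changes of -0.12 (SE 0.05, adjusted p = 0.28 in edgeR) and -0.15 (SE 0.06, adjusted p = 0.311), and Pcdhgc4 had 0.08 (SE 0.11). In the beta cluster Pcdhb5 and Pcdhb4 had the smallest p, with log2 fold changes of -0.22 (SE 0.13) and -0.17 (SE 0.10) and adjusted p = 0.463 and 0.501 in edgeR. The same 4 upstream beta genes, Pcdhb2 to Pcdhb5, were negative here, -0.27 to -0.16, while 12 of the 17 from Pcdhb6 to Pcdhb22 were positive.

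With the striatal marker score in the model, Pcdhga2 passed, at a log2 fold change of -0.52 (adjusted p = 0.00452 in edgeR), and 0.586% of all genes passed in that fit. Leaving out Dp(16)1/Df(16)8 replicate 1 gave 2 calls, Pcdhga2 at -0.48 (adjusted p = 0.0392) and Pcdha3 at -0.41 (adjusted p = 0.0465), with 1.38% of all genes called.

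**Figure D4:**
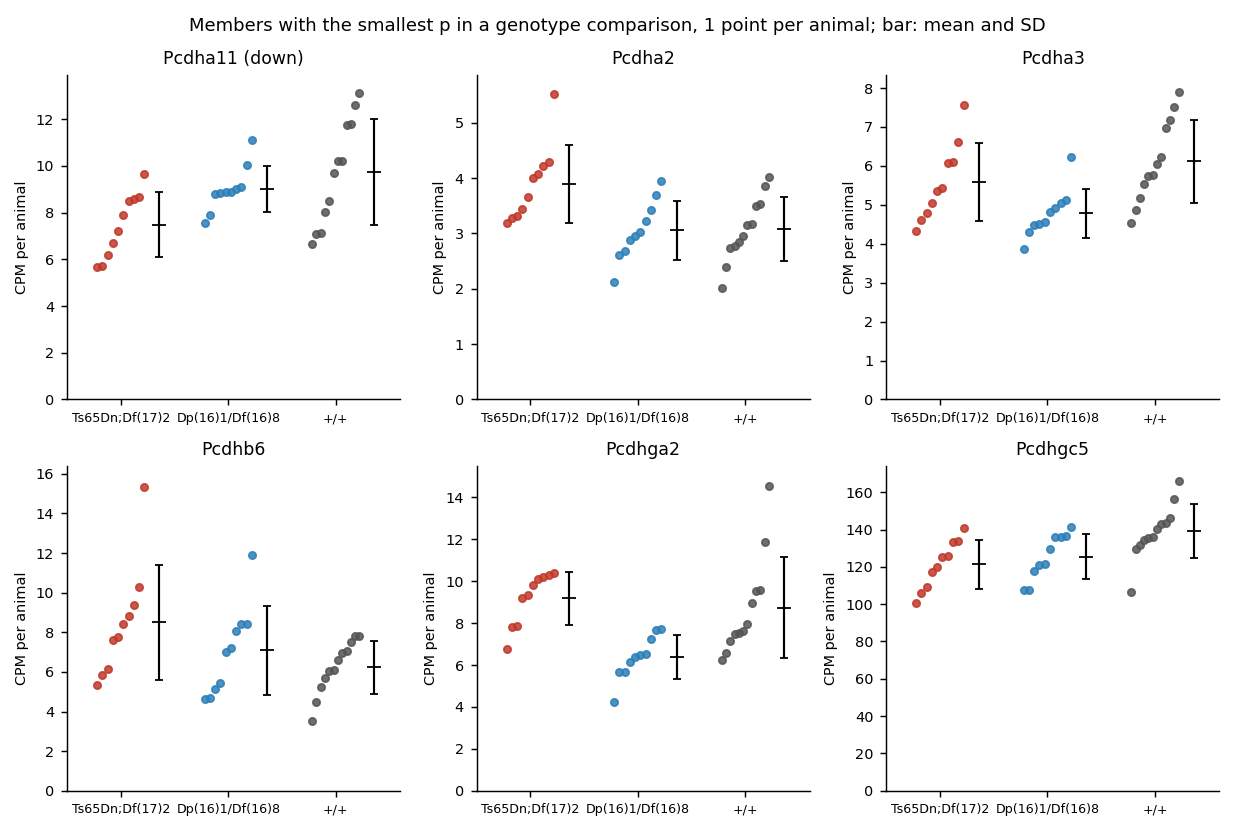
CPM per animal (vertical axis), with columns for Ts65Dn;Df(17)2, then Dp(16)1/Df(16)8, then +/+, of the downstream Pcdha11 entry, Pcdha2, Pcdha3, Pcdhb6, Pcdhga2 and Pcdhgc5, with points in order of value and the mean and SD beside them. Pcdhga2 lies lowest in Dp(16)1/Df(16)8, where its highest animal has 7.71 CPM, and the ranges of the 3 genotypes overlap for all 6 genes.

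Set directly against each other, Ts65Dn;Df(17)2 and Dp(16)1/Df(16)8 differed at 0 of 56 clustered protocadherins in edgeR, against 0.0499% of all tested genes, 0.0436% positive and 0.00623% negative. DESeq2 and limma voom called 0 too, against 0.0278% and 0.0436% of their genes. By unadjusted p, 5 of 56 fell under 0.05, against 4.1% of all genes. Most fitted values were positive: 8 of 13 alpha, 20 of 21 beta and 19 of 22 gamma genes, with medians of 0.03, 0.10 and 0.10, against 50.1% positive, 49.9% negative and a median of 0.00 over all genes. For 50 of 56 genes the 95% interval lay within a 1.5-fold change either way, as it did for 13541 of all 16042 tested genes.

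Pcdhga2 had the largest of these values. Its 10 Ts65Dn;Df(17)2 animals ran from 6.77 to 10.4 CPM with a median of 9.59, and its 10 Dp(16)1/Df(16)8 animals from 4.24 to 7.71 CPM with a median of 6.43. The ranges overlapped, and all 10 Ts65Dn;Df(17)2 animals were above the Dp(16)1/Df(16)8 mean. The log2 fold change was 0.51 (SE 0.12, unadjusted p = 0.000241, adjusted p = 0.351 in edgeR), a fold of 1.43 with an interval of 1.198 to 1.703. Pcdhga3 averaged 15.6 ± 2.2 CPM in Ts65Dn;Df(17)2 and 11.9 ± 2.1 CPM in Dp(16)1/Df(16)8 animals (SD, n = 10 each), a log2 fold change of 0.38 (SE 0.11, adjusted p = 0.762 in edgeR).

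Pcdha2 and the downstream Pcdha11 entry again had opposite signs, with log2 fold changes of 0.35 (SE 0.12) and -0.27 (SE 0.12). In the beta cluster Pcdhb18 and Pcdhb13 had the smallest p, with 0.16 (SE 0.08) and 0.21 (SE 0.11). Pcdhga5 had 0.32 (SE 0.14). Each of these 5 had an adjusted p of 1.00 in edgeR. All 5 C-type genes were close to 0, from -0.05 in Pcdhgc5 to 0.07 in Pcdhgc3.

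Because striatal markers varied widely between animals, each gene was also fitted against a striatal marker score, the mean log2 CPM of the 16 markers, with genotype and sex in the model. This fit was added after the data had been seen. The score ran from 4.96 to 6.88 with a median of 6.45 in Ts65Dn;Df(17)2, from 3.17 to 7.02 with a median of 6.45 in Dp(16)1/Df(16)8, and from 2.82 to 7.05 with a median of 4.66 in +/+ animals. In this fit 18 of 56 clustered protocadherins passed, 16 with a positive and 2 with a negative slope, against 27.3% of all tested genes, 13.9% positive and 13.4% negative. With the clusters and both directions pooled, the share of members that passed, 32.1%, was near that background. By cluster, 8 of 21 beta genes (38.1%) and 8 of 22 gamma genes (36.4%) passed, all with positive slopes. Of the alpha genes 2 of 13 (15.4%) passed, with negative slopes. By unadjusted p, 30 of 56 members fell under 0.05, against 37.1% of all genes. Leaving out any 1 library gave 16 to 20 members past the adjusted threshold.

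Slopes were positive in 3 of 13 alpha, 17 of 21 beta and 21 of 22 gamma genes, against 51.6% positive and 48.4% negative over all genes. In the beta cluster all 17 genes from Pcdhb6 to Pcdhb22 had positive slopes, 8 of them past the threshold, and the 4 from Pcdhb2 to Pcdhb5 had negative ones, none past it. Pcdhb16 had a slope of 0.14 log2 per unit of score (SE 0.03, adjusted p = 0.000144 in edgeR) and Pcdhb6, the steepest member, 0.22 (SE 0.05, adjusted p = 0.000808). For Pcdhb6 this is a fold of 1.93 over the 4.23 units between the lowest and the highest animal. Pcdhb6 was lowest in +/+ replicate 10, 3.55 CPM at a score of 4.59, and highest in Ts65Dn;Df(17)2 replicate 5, 15.3 CPM at 6.77. In the animals of lowest and highest score, +/+ replicate 4 at 2.82 and +/+ replicate 6 at 7.05, it had 6.09 and 7.82 CPM.

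All 19 gamma A and gamma B genes had positive slopes, 7 past the threshold, with medians of 0.08 and 0.09. Pcdhgb6 had 0.13 (SE 0.03, adjusted p = 0.000515 in edgeR) and Pcdhga2 0.14 (SE 0.04, adjusted p = 0.00329). Among the C-type gamma genes, Pcdhgc3 passed with a slope of 0.04 (SE 0.02, adjusted p = 0.0381), and Pcdhgc5 had -0.03 (SE 0.02). Alpha genes were mostly negative, 10 of 13, and those that passed were Pcdhac2 at -0.09 (SE 0.02, adjusted p = 0.00151) and Pcdha12 at -0.11 (SE 0.03, adjusted p = 0.00516).

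**Figure D5:**
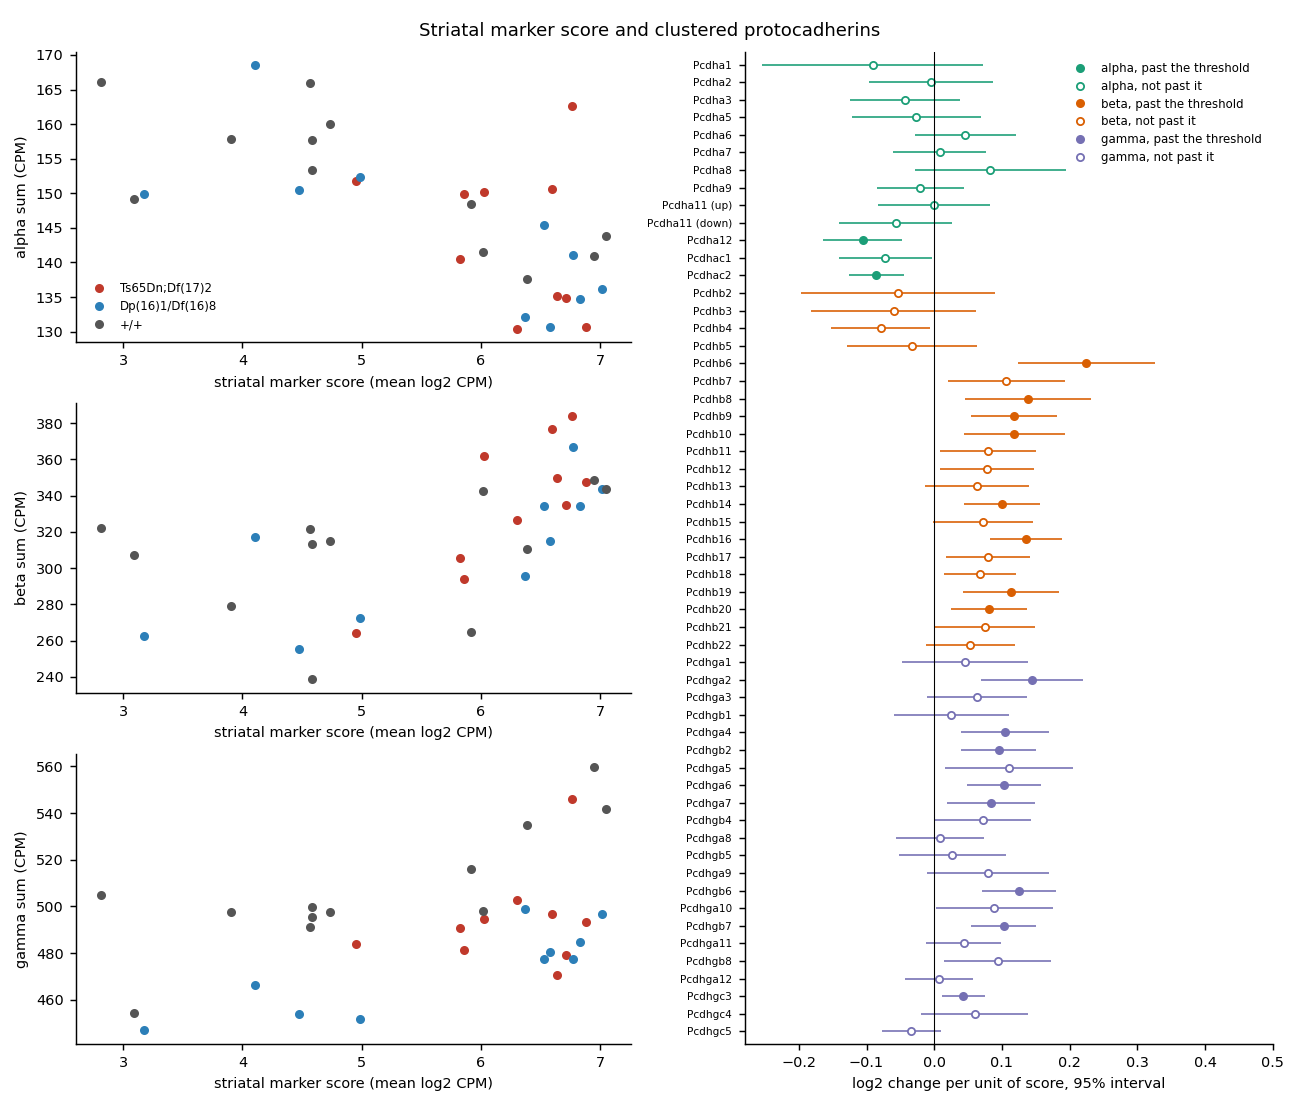
Left, the summed CPM of each cluster (vertical axes, which do not start at 0) against the striatal marker score of each of the 32 animals, coloured by genotype; right, the log2 change per unit of score of the 56 tested genes with 95% intervals, filled where the adjusted p is under 0.05. The 19 gamma A and gamma B genes and the 17 beta genes from Pcdhb6 onward lie right of 0, and Pcdhac2 and Pcdha12 are the filled points left of it.

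Some other marker lists moved with the score as well, in a fit where 27.3% of all tested genes passed, 13.9% positive and 13.4% negative. Of 14 markers of cortical excitatory neurons, 10 had a negative and 3 a positive slope past the threshold. Among 12 interneuron markers it was 4 positive and 1 negative, and among 8 microglial markers 7 positive. Past the threshold were 0 of 10 astrocyte, 0 of 8 oligodendrocyte and 0 of 8 meningeal and fibroblast markers. Positive slopes passed in 3 of 5 tested olfactory bulb, 2 of 6 oligodendrocyte precursor and 3 of 9 endothelial and mural markers. They also passed in 2 of 6 thalamus and 1 of 5 hippocampus markers, and a negative slope passed in 1 of 4 choroid plexus markers. The summed cortical excitatory markers ran from 1428 to 2476 CPM in Ts65Dn;Df(17)2, from 1485 to 3140 CPM in Dp(16)1/Df(16)8 and from 1489 to 3249 CPM in +/+ animals. In Ts65Dn;Df(17)2 against +/+ 6 of the 14 were lower and past the threshold, while 0 of 16 striatal markers passed, at a median log2 fold change of 0.73. The 5 tested olfactory bulb markers were all positive there, at a median log2 fold change of 1.14, with 0 past the threshold. In that comparison 3.97% of all tested genes passed, 2.22% with a negative value. The part of these lists in the differences between genotypes was not tested beyond adding the score as a term. With the term, the median over beta genes in Ts65Dn;Df(17)2 minus +/+ was 0.00 in place of 0.11, with 11 of 21 positive in place of 16, and the median over gamma genes was -0.05 in place of 0.05. No member passed in that fit, against 0.948% of all genes. The alpha median in Ts65Dn;Df(17)2 minus +/+ was 0.01 in place of -0.05, with 7 of 13 positive in place of 4. In Dp(16)1/Df(16)8 minus +/+ the beta median was -0.06 in place of 0.02 and the gamma median -0.11 in place of -0.07. Between the aneuploid genotypes 10 of 13 alpha, 17 of 21 beta and 17 of 22 gamma genes were positive with the term, with medians of 0.03, 0.08 and 0.06. The values of the downstream Pcdha11 entry and of Pcdhgc5 in Ts65Dn;Df(17)2 minus +/+ were then -0.30 and -0.16, with adjusted p = 0.27 and 0.287 in edgeR.

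Between the sexes, 0 of 56 clustered protocadherins passed in edgeR, against 0.0748% of all tested genes, 0.0436% positive and 0.0312% negative, and 11 of 56 had an unadjusted p under 0.05, against 9.94% of all genes. Values of females over males were positive in 10 of 13 alpha, 16 of 21 beta and 5 of 22 gamma genes, against 48.1% positive and 51.9% negative over all genes. Among the 11 under an unadjusted p of 0.05, 7 were beta genes, each with a positive value, higher in females. Pcdhb4, named after its values were seen, ran from 4.54 to 8.83 CPM with a median of 5.94 in females and from 3.92 to 5.99 CPM with a median of 4.58 in males. Ranges overlapped, and 15 of 16 females were above the male mean of their genotype. Its log2 fold change of females over males was 0.40 (SE 0.08, adjusted p = 0.0512 in edgeR), and 0.41 (adjusted p = 0.0752) without the library whose transcripts went against its labelled sex. The smallest p in the alpha and gamma clusters belonged to Pcdha1, at 0.47 (SE 0.18), and Pcdhgc3, at -0.13 (SE 0.04), and their adjusted p were 0.439 and 0.381.

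The 4 upstream beta genes, Pcdhb2 to Pcdhb5, all had positive values in this comparison, with a lowest of 0.24 and a highest of 0.57. An interaction of genotype with sex was found at 0 of 56 members for either aneuploid genotype, and at 0% of all tested genes. By unadjusted p it was 1 of 56 members for Ts65Dn;Df(17)2, against 4.91% of all genes, and 1 of 56 for Dp(16)1/Df(16)8, against 5.01%. Fitted interactions were positive in 31 of 56 members for Ts65Dn;Df(17)2, against 50.7% positive and 49.3% negative over all genes, and in 32 of 56 for Dp(16)1/Df(16)8, against 50.5% positive and 49.5% negative.

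Genes that control the clusters did not pass in any comparison of genotypes: 0 of 19 tested regulators in each, with 3 under an unadjusted p of 0.05 in Ts65Dn;Df(17)2 minus +/+, 4 in Dp(16)1/Df(16)8 minus +/+ and 0 between the aneuploid genotypes. The adjusted threshold was passed by 3.97%, 0.573% and 0.0499% of all tested genes in these comparisons, and the unadjusted one by 21.8%, 12.8% and 4.1%. Ctcf, which holds promoters and enhancers of the clusters in loops, averaged 68.0 ± 2.6 CPM in Ts65Dn;Df(17)2, 68.4 ± 7.6 CPM in Dp(16)1/Df(16)8 and 70.6 ± 6.7 CPM in +/+ animals. Rad21, a cohesin subunit, averaged 118.7 ± 7.3 CPM in Ts65Dn;Df(17)2, 122.5 ± 8.1 CPM in Dp(16)1/Df(16)8 and 121.0 ± 9.2 CPM in +/+ animals, and Smchd1, which represses the clusters, 70.3 ± 5.0 CPM in Ts65Dn;Df(17)2, 70.8 ± 2.7 CPM in Dp(16)1/Df(16)8 and 70.8 ± 4.5 CPM in +/+ animals. Nipbl, the cohesin loader, had log2 fold changes of 0.05 (SE 0.04) in Ts65Dn;Df(17)2 and 0.04 (SE 0.04) in Dp(16)1/Df(16)8 over +/+. The cohesin subunit Stag1 had the smallest p of the list in both comparisons, at 0.14 (SE 0.05, adjusted p = 0.0782 in edgeR) in Ts65Dn;Df(17)2 and 0.17 (SE 0.05, adjusted p = 0.133) in Dp(16)1/Df(16)8 over +/+. Pds5b, which regulates cohesin, had 0.10 in both. Between the aneuploid genotypes the smallest p belonged to the DNA methyltransferases Dnmt1, at -0.07, and Dnmt3a, at 0.08.

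Among 24 genes that act downstream of clustered protocadherins or process them, 1 passed, in Ts65Dn;Df(17)2 minus +/+, where 3.97% of all tested genes did. Ptk2, the focal adhesion kinase that their cytoplasmic part inhibits, ran from 112.2 to 153.5 CPM with a median of 125.2 in Ts65Dn;Df(17)2, from 113.1 to 207.0 CPM with a median of 140.8 in Dp(16)1/Df(16)8, and from 117.6 to 229.2 CPM with a median of 154.5 in +/+ animals. The ranges overlapped. Its log2 fold change in Ts65Dn;Df(17)2 minus +/+ was -0.36 (SE 0.10, adjusted p = 0.0388 in edgeR), and -0.18 (adjusted p = 0.337) with the striatal marker score in the model. Leaving out single libraries gave adjusted p up to 0.081, above the threshold for 13 of them. Cyfip2, a part of the WAVE complex that links membrane receptors to actin, had -0.19 (SE 0.06, adjusted p = 0.0523). In Dp(16)1/Df(16)8 minus +/+ 0 of the 24 passed, and Axin1, a scaffold of Wnt signalling that binds Pcdhgc3, had the smallest p with -0.14 (SE 0.05, adjusted p = 0.238).

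Of the protocadherins encoded outside the clusters, 11 were tested and 1 passed, again in Ts65Dn;Df(17)2 minus +/+, where 3.97% of all tested genes did. Pcdh9, an adhesion protein of cortical neurons, ran from 261 to 356 CPM with a median of 296 in Ts65Dn;Df(17)2, from 285 to 436 CPM with a median of 329 in Dp(16)1/Df(16)8, and from 268 to 467 CPM with a median of 371 in +/+ animals. The ranges overlapped. The log2 fold change in Ts65Dn;Df(17)2 minus +/+ was -0.34 (SE 0.08, adjusted p = 0.0133 in edgeR), and -0.18 (adjusted p = 0.11) with the striatal marker score in the model. Pcdh1 had -0.23 (SE 0.08, adjusted p = 0.0662). In Dp(16)1/Df(16)8 minus +/+ 0 of the 11 passed, with Pcdh18 at 0.34 (SE 0.15) and Pcdh1 at -0.17 (SE 0.08) having the smallest p. Between the aneuploid genotypes 0 passed.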

How the data were processed

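The authors deposited raw counts per gene for 32 libraries of rRNA-depleted total RNA from cerebral cortex, per the labels. The submitters' processing notes name bcl2fastq 2.20, STAR 2.7.9a, featureCounts of Subread 1.6.4 and the builds GRCm38.p6 and GRCh38. The strand setting, the handling of overlapping genes and the annotation release are not given in the sources used here, so reads of antisense partners cannot be told apart. Coordinates and exon lengths came from GENCODE M21 (GRCm38), which held 55141 of the 55401 identifiers. All deposited sample columns were used.

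The counts were fitted in R 4.3.3 with edgeR 4.0.16 (TMM scaling, filterByExpr by genotype, glmQLFit and glmQLFTest) on genotype and sex over all 32 libraries. P-values were adjusted by Benjamini-Hochberg over 16042 genes, with a threshold of 0.05 on the adjusted p. The SE is the log2 fold change divided by the root of F, and intervals are at 95%. CPM were computed from the counts with TMM library sizes. Tests were checked on simulated data. Alternatives used DESeq2 1.42.0, limma 3.58.1 voom, other size factors, filters, terms and samples. The members and gene lists were chosen with earlier results of these data known. Named genes are the C-type genes, the 2 members with the smallest p per cluster and genotype comparison, the 2 highest and 2 lowest per cluster by level, any member past the threshold, and from the other lists Ctcf, Rad21, Nipbl, Smchd1, genes past the threshold and the 2 with the smallest p. Other members named, and those named by slope, were chosen after their values were seen. Litters are not given, so p-values measure the spread between these animals.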

Additional observations from a re-analysis of the deposited data

Results flagged for a closer look

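Within the groups of 10 animals, 56 sets of values were searched for an animal far from the rest. Dixon's gap test was applied to log2 values at a critical value of 0.466, and 5 sets had one. The levels below are in CPM, where the gaps differ and other animals can stand out. Chance gives about 1 in 20 such sets. Pcdhb18 had 16.9 CPM in Ts65Dn;Df(17)2 replicate 4, where the other 9 animals had 21.99 to 29.2 CPM. Pcdhga11 had 31.4 CPM in Ts65Dn;Df(17)2 replicate 5, where the others had 19.6 to 24.6 CPM. The summed gamma cluster in that same animal was 546.1 CPM, where the others had 470.6 to 502.8 CPM. Ts65Dn;Df(17)2 replicates 4 and 5 are the animals numbered below 30000. Pcdhga1 had 5.20 CPM in Dp(16)1/Df(16)8 replicate 4, where the others had 6.59 to 8.42 CPM. Pcdhga2 had 4.24 CPM in Dp(16)1/Df(16)8 replicate 10, where the others had 5.66 to 7.71 CPM.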

How the results depend on the processing

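The count of clustered protocadherins past the threshold was 0 in each comparison of genotypes under the alternatives run, except the following. In Ts65Dn;Df(17)2 minus +/+ DESeq2 gave 2, and leaving out single libraries gave 0 to 3. In Dp(16)1/Df(16)8 minus +/+ the striatal marker score as a term gave 1, and leaving out single libraries gave 0 to 2. For the slopes on the score, leaving out single libraries gave 16 to 20. Causes were not tested. No paired analysis was possible because no label gives a number shared by animals of different genotypes. Blocks of animal numbers, used as terms, group animals and do not pair them.

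Among values that turned in sign, Pcdh7 was -0.14 and Pcdhgc4 0.05 between the aneuploid genotypes as reported. With the score as a term, Pcdhac1 had 0.0084 in Dp(16)1/Df(16)8 minus +/+, 0.0346 in Ts65Dn;Df(17)2 minus +/+ and 0.0262 between the aneuploid genotypes, Pcdhac2 had 0.0098, 0.0179 and 0.0081 in the same comparisons, Rad21 had 0.0341 in Ts65Dn;Df(17)2 minus +/+, and Ctcf had 0.0102 and Nipbl -0.0037 between the aneuploid genotypes. With blocks of animal numbers as terms, Pcdhac1 had 0.0076 in Ts65Dn;Df(17)2 minus +/+, and between the aneuploid genotypes Pcdhac1 had 0.0793, Pcdhac2 0.0359, Pcdhgc4 -0.10, Ctcf 0.0167, Pcdh7 0.0692 and Smchd1 0.0101, while Smchd1 had 0.0030 in Ts65Dn;Df(17)2 minus +/+. Smchd1 in Dp(16)1/Df(16)8 minus +/+, 0.0005 as reported, was -0.0019 with DESeq2 size factors, -0.00248 with no filter, -0.0099 without the library of unmatched sex, -0.00559 with the score, -0.00706 with the blocks, -0.000103 without the animals numbered below 30000 and -0.0027 in DESeq2.

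Leaving out single libraries gave -0.0246 to 0.0339 for Ctcf, -0.0047 to 0.0257 for Nipbl, -0.0779 to 0.0445 for Pcdhac1 and -0.0346 to 0.0076 for Smchd1 between the aneuploid genotypes. It gave -0.0975 to 0.0269 for Pcdhac1, -0.0013 to 0.0346 for Rad21 and -0.0167 to 0.0123 for Smchd1 in Dp(16)1/Df(16)8 minus +/+, and -0.0343 to 0.0085 for Smchd1 in Ts65Dn;Df(17)2 minus +/+. A member held at most 1421 counts in a library. Between the aneuploid genotypes 6 of 56 intervals reach beyond a 1.5-fold rise and 0 beyond a 1.5-fold fall. Over all 16042 tested genes these were 1487 and 1298.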
